A study of Rattus norvegicus with 10 samples.

Results

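The nuclear genes whose products import proteins into mitochondria, fold them there and degrade them were followed in rat nucleus pulposus cells after knockdown of Bnip3, a mitophagy receptor of the outer mitochondrial membrane. Members were chosen by gene symbol: all Timm and Tomm genes with a number, and a fixed set of import-motor, chaperone and protease genes. The rule found 42 members, each with 1 probeset, among the 23188 probesets tested, and Clpp, Immp1l and Immp2l were not analysed here. The ShBNIP3 group held 5 arrays of cells transduced with lentiviral particles against BNIP3, and the ShCtrl group held 5 arrays of cells that received the control hairpin in the pLKO.1 vector, so both groups carry a lentiviral vector. The cells came from the discs of male Sprague Dawley rats of 300 grams and 3 to 4 months of age, and RNA was taken 4 days after transduction. The labels give neither the number of hairpins against Bnip3 nor the origin of the arrays within a group (cultures or animals). The p-values therefore weigh each difference only against the scatter among these 5 and 5 samples, and that scatter may be technical.

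Most mitochondrial proteins are made in the cytosol and enter through the TOM complex of the outer membrane. From there the TIM23 channel, driven by the HSP70-based import motor, takes in proteins with a presequence, while the small Tims carry hydrophobic proteins to the TIM22 complex. In the matrix the presequence is cut off, chaperones of the HSP60, HSP70 and HSP90 families fold the protein, and AAA+ proteases remove what is damaged or unassembled. Nucleus pulposus cells live in a poorly vascularised tissue and rely largely on glycolysis, and Bnip3 is one of the receptors through which they remove mitochondria.

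Values are log2 expression levels, as normalized by the authors, and differences are ShBNIP3 minus ShCtrl, tested with limma. Its p-values were adjusted over the 23188 probesets by the Benjamini-Hochberg method, and 0.05 was the threshold. Bnip3 itself averaged 11.4 ± 0.77 in ShBNIP3 and 14.6 ± 0.79 in ShCtrl (SD, n = 5 each). The log2 difference was -3.21 (SE 0.40, limma adjusted p = 0.0002; exact two-sided permutation p = 0.0079, the smallest that 5 against 5 arrays can give). Bnip3 was highest of its group on ShBNIP3 array 10, at 12.68 against 10.59 to 11.31 on the others. It was also highest of its group on ShCtrl array 4, at 15.97 against 13.94 to 14.54. Without both arrays the log2 difference was -3.19. ShBNIP3 array 10 and ShCtrl array 4 correlated less with their own groups than the other arrays did, with mean Pearson r of 0.986 and 0.983 over all probesets, against 0.992 for the others. ShCtrl array 4 was the lowest of its group for 21 of the 42 members and ShBNIP3 array 10 for 17. Acan, Col2a1, Car3 and Hapln1 were above background on all 10 arrays, while the nucleus pulposus markers Krt8, Krt18, Krt19, Tbxt and Shh were at background on all 10. Of 14 nucleus pulposus markers measured, 3 were lower (Col2a1, Car3 and, at background throughout, Comp) and 2 higher (Hapln1 and Cdh2). Cdh2 was at background on all 5 ShCtrl arrays. Acan, the brightest of them, did not pass (log2 difference -0.90, limma adjusted p = 0.19). Their summed linear level ran from 8331 to 15731 in ShBNIP3 and from 12236 to 24717 in ShCtrl. Of 11 macrophage and leukocyte markers, 9 were at background throughout, Ptprc, Csf1r, Itgam and Aif1 among them. Cd68, Cd14 and, at background throughout, Cd53 rose. The linear level summed over the 11 markers ran from 3997 to 9718 in ShBNIP3 and from 2107 to 3474 in ShCtrl. Most of that sum was Cd14, with mean log2 levels of 12.29 in ShBNIP3 and 11.17 in ShCtrl. Of 10 annulus fibrosus and fibroblast markers 5 were lower (Col1a1, Col1a2, Col3a1, Thy1 and Fmod) and 1 higher (Postn), with Tnmd at background, and their summed level ran from 763184 to 927812 in ShBNIP3 and from 1007123 to 1087422 in ShCtrl. Of 7 Schwann and neural markers Ncam1 was lower and 4 were at background throughout (Mbp, Sox10, Nefl and Nefm), and the sum ran from 79445 to 147499 in ShBNIP3 and from 154230 to 221506 in ShCtrl. Nearly all of that sum was Ncam1 and Pmp22, and Pmp22 did not pass (limma adjusted p = 0.111). The 8 endothelial and 10 skeletal muscle markers measured were at background on all arrays. The part of these markers in the results below was not tested. In bulk RNA, fewer cells of a type and less RNA per cell cannot be told apart.

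Lonp1 and Timm17b fell, and the other 9 members that passed the test rose by less than 2-fold, Spg7 the most (1.80-fold). Of the 42 members 9 rose and 2 fell, which is 26.2%, where 15.5% of all probesets changed, 7.61% upward and 7.87% downward. Many probesets of the array, but few members, were at background. Among the 38 members and the 10815 probesets that lay above background on at least 5 arrays, 28.9% of members and 29.0% of probesets passed, so the members changed about as often as other genes of measurable level. Of these brighter probesets 14.2% rose and 14.8% fell. The median log2 difference of the 42 members was 0.23, against 0.02 over all probesets. In 9 members the groups did not overlap, 7 higher and 2 lower (21.4%), where 12.9% of all probesets did not. Among brighter probesets the share was 23.7% of the 38 members and 24.6% of all 10815. Only Lonp1 passed with a change of at least 2-fold, where 4.18% of all probesets did. The roles below hold 3 to 11 genes each. Their counts are descriptions and stand beside the same 15.5% of all probesets and 29.0% of the brighter ones.

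**Figure D1:**
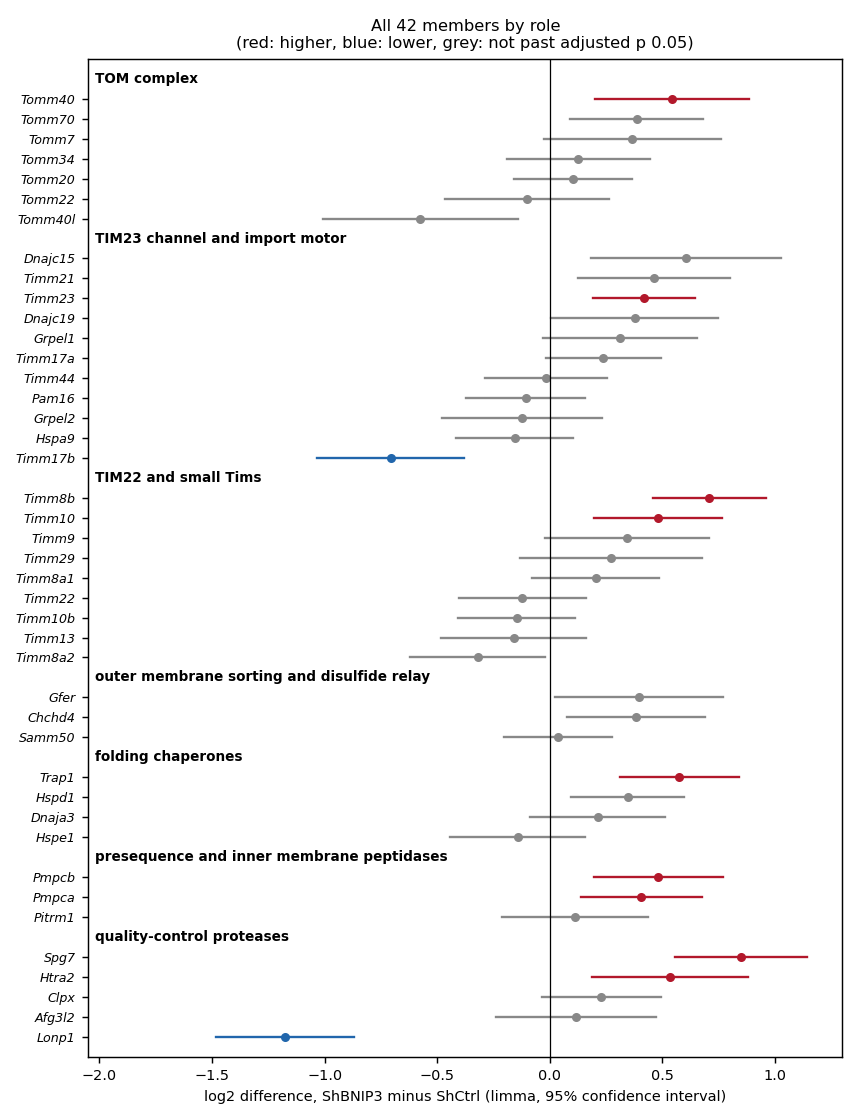
Log2 difference (ShBNIP3 minus ShCtrl) of each of the 42 members with its 95% confidence interval from limma, grouped by role. Red points rose and blue points fell past an adjusted p of 0.05, and grey points did not pass; Lonp1 lies at -1.18 and Spg7 at 0.85.

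Upstream regions of 5 members are printed because they belong to members whose change, or lack of it, is described below. They are the 250 bases before the annotated start in the RefSeq table of build GRCr8, where 35 of the 42 members matched, 9 of the 11 that passed the test among them. In each, capitals mark the motif named for it, 1 of 7 motifs searched on both strands in the whole window of 300 bases, which runs 50 bases past the start. The first region (chr9:64084077-64084326, plus strand) lies between the starts of Hspe1 and Hspd1, which are read in opposite directions from starts 290 bases apart, and its capitals are 2 overlapping matches to the heat shock element GAANNTTCNNGAA. The second (chr10:11971009-11971258, plus strand) belongs to Trap1 and has 2 matches to the cAMP response element TGACGTCA. The others belong to Timm23 (chr16:7442620-7442869, minus strand), Timm10 (chr3:90314889-90315138, plus strand) and Pmpcb (chr4:14202585-14202834, minus strand), which rose, and have 1 match each to the ETS site CCGGAAGT.
Hspe1: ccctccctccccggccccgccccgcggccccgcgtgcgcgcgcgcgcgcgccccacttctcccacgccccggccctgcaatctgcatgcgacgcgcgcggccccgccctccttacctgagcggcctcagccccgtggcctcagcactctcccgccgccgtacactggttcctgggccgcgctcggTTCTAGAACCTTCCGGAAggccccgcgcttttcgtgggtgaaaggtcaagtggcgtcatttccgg
Trap1: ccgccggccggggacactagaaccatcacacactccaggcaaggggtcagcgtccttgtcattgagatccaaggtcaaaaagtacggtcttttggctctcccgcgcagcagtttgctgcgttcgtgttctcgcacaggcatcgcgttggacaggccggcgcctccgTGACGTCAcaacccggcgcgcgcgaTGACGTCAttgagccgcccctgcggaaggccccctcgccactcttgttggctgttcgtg
Timm23: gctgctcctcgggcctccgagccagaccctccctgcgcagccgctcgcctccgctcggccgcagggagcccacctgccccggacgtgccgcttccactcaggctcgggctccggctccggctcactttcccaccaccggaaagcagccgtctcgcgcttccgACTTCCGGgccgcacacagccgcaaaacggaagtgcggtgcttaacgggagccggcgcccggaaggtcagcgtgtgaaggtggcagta
Timm10: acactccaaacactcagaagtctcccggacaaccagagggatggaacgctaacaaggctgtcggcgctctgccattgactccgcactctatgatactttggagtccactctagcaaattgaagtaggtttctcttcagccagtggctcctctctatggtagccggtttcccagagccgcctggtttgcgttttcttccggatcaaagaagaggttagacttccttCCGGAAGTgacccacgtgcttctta
Pmpcb: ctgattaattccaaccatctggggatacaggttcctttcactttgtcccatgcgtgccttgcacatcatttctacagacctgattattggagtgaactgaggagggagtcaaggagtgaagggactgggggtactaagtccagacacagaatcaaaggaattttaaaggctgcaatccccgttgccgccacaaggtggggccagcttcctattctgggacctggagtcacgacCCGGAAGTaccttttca

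The ETS site was in the windows of 9 of 35 members (25.7%) and in 4.78% of 21842 windows of protein-coding genes. Of the 9 members with a window that passed the test, 3 had it (Timm23, Timm10 and Pmpcb). The ETS site was also in the windows of Dnaja3, Grpel2, Timm10b, Timm8a2, Tomm20 and Tomm70, which did not pass. The heat shock element was found for Hspd1 and Hspe1, whose windows overlap and hold the same match (0.540% of all windows). The C/EBP-ATF response element TGATGNAA, bound by ATF4 with C/EBP proteins, was in the windows of Hspa9, Timm22 and Tomm40l (3.35% of all windows), none of which passed the test. Lonp1 and Htra2, which passed the test, had no window and were not searched for any motif. The NRF1 site GCGCATGCG was in those of Chchd4, Grpel1 and Tomm7 (1.92% of all), the oestrogen-related receptor element TCAAGGTCA in that of Timm8b (0.366% of all), and the hypoxia response core ACGTG in 11 of 35 (31.4%, against 19.9% of all). Trap1 was the 1 member with the cAMP response element (2.10% of all). Median GC content was 58.7% in the members' windows and 55.0% in all windows, and a match is a description of the letters only.

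Among the Tomm genes, 1 of 7 passed the test (14.3%, where 15.5% of all probesets and 29.0% of the brighter ones did). Tomm40 had log2 levels of 13.05, 12.93, 13.07, 13.19 and 12.59 on ShBNIP3 arrays 6 to 10, against 12.38, 12.49, 12.67, 11.97 and 12.60 on ShCtrl arrays 1 to 5. ShBNIP3 array 10 lay just within the ShCtrl range and the other 4 above it. Tomm40, the channel of the TOM complex, rose 1.46-fold (log2 difference 0.54, SE 0.16, limma adjusted p = 0.0348). Without any 1 of ShBNIP3 arrays 6 to 9 or ShCtrl arrays 1, 2 and 4 the adjusted p was over 0.05, at most 0.0885. Tomm40l had log2 levels of 9.65, 10.05, 10.06, 10.34 and 9.54 on ShBNIP3 arrays 6 to 10, against 10.51, 10.44, 10.65, 9.94 and 10.98 on ShCtrl arrays 1 to 5. The groups overlapped through ShCtrl array 4. Tomm40l, a paralog of Tomm40, did not pass (log2 difference -0.57, SE 0.20, limma adjusted p = 0.075), but passed as lower without ShCtrl array 4 (adjusted p = 0.0158) and without it and ShBNIP3 array 10 (adjusted p = 0.022). The signs of the pair were opposite, and the difference between their changes was 1.12 (exact two-sided permutation p = 0.0079, adjusted p = 0.0139 over 14 gene pairs). All 14 pairs were chosen with earlier results of these data known, and the adjustment does not cover that choice. None of the receptors passed: Tomm20 differed by 0.10, Tomm22 by -0.10 and Tomm70 by 0.39 (95% interval 0.09 to 0.68, limma adjusted p = 0.0784, and 0.0239 without ShBNIP3 array 6). The small subunit Tomm7 differed by 0.37 and the cytosolic co-chaperone Tomm34 by 0.13, and neither passed.

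Of 11 genes of the TIM23 channel and its motor, 1 rose and 1 fell. That is 18.2%, where 15.5% of all probesets and 29.0% of the brighter ones passed. Timm23 had log2 levels of 14.59, 14.47, 14.36, 14.42 and 14.57 on ShBNIP3 arrays 6 to 10, against 14.10, 14.04, 14.18, 13.99 and 14.01 on ShCtrl arrays 1 to 5. The groups did not overlap, and the spread within each was small, 0.10 in ShBNIP3 and 0.08 in ShCtrl (SD). Timm23, the channel protein, rose 1.34-fold (log2 difference 0.42, SE 0.10, limma adjusted p = 0.0157). Timm17b had log2 levels of 9.23, 9.09, 9.38, 9.15 and 8.75 on ShBNIP3 arrays 6 to 10, against 9.97, 9.75, 10.09, 9.47 and 9.84 on ShCtrl arrays 1 to 5. All ShBNIP3 arrays lay below all ShCtrl arrays. Timm17b, one of a pair of paralogs that build the channel beside Timm23, fell 1.63-fold (log2 difference -0.71, SE 0.15, limma adjusted p = 0.00654). Its paralog Timm17a differed by 0.24 (limma adjusted p = 0.225), and the changes of Timm17b and Timm17a were 0.94 apart, lower for Timm17b (exact two-sided permutation p = 0.0079, adjusted p = 0.0139 over 14 pairs).

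The motor itself did not pass the test. Hspa9, the mitochondrial HSP70 that pulls proteins in, differed by -0.16 (95% interval -0.42 to 0.10), the channel anchor Timm44 by -0.02 (95% interval -0.29 to 0.25) and the J-like protein Pam16 by -0.11. Dnajc15 had log2 levels of 11.04, 10.62, 10.99, 10.76 and 10.28 on ShBNIP3 arrays 6 to 10, against 10.24, 10.52, 10.08, 9.53 and 10.28 on ShCtrl arrays 1 to 5. Only ShBNIP3 array 10 lay within the ShCtrl range, and without it and ShCtrl array 4 the adjusted p was 0.0143. The J-protein Dnajc15 was the uncalled member of this group with the largest difference (log2 difference 0.60, SE 0.20, limma adjusted p = 0.0552). Its paralog Dnajc19 differed by 0.38, and the changes of Dnajc15 and Dnajc19 were 0.23 apart (exact two-sided permutation p = 0.119, adjusted p = 0.152 over 14 pairs). The nucleotide exchange factor Grpel1 differed by 0.31 and the channel subunit Timm21 by 0.46 (limma adjusted p = 0.0649). Without ShBNIP3 array 10 and ShCtrl array 4, Timm21 and Dnajc19 also passed, with adjusted p of 0.0164 and 0.0259. Grpel2, the other exchange factor, was at background on all 10 arrays.

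Of 9 genes of the TIM22 complex and the small Tims, 2 rose and 0 fell. That is 22.2%, where 15.5% of all probesets and 29.0% of the brighter ones passed. Before adjustment, limma gave a p under 0.05 for the same 2 and for 1 lower gene, Timm8a2, which was at background throughout. Timm8b had log2 levels of 10.70, 10.61, 10.78, 10.48 and 10.38 on ShBNIP3 arrays 6 to 10, against 9.84, 10.05, 9.83, 9.91 and 9.78 on ShCtrl arrays 1 to 5. The lowest ShBNIP3 array was above the highest ShCtrl array, and the call held in all 10 fits with 1 array left out. Timm8b, a small Tim that escorts hydrophobic proteins across the intermembrane space, rose 1.63-fold (log2 difference 0.71, SE 0.12, limma adjusted p = 0.00127). Timm10 had log2 levels of 7.47, 7.86, 7.44, 7.64 and 7.43 on ShBNIP3 arrays 6 to 10, against 7.14, 7.29, 6.94, 7.20 and 6.85 on ShCtrl arrays 1 to 5. The groups did not overlap, but the adjusted p was over 0.05 without ShBNIP3 array 7 or 9 or ShCtrl array 3 or 5, at most 0.0653. Timm10, which forms a chaperone ring with Timm9, rose 1.40-fold (log2 difference 0.48, SE 0.13, limma adjusted p = 0.0252). Timm9 had log2 levels of 9.32, 9.21, 8.61, 9.05 and 8.99 on ShBNIP3 arrays 6 to 10, against 8.96, 8.80, 8.51, 8.90 and 8.29 on ShCtrl arrays 1 to 5. The groups overlapped. Timm9, the partner of Timm10, did not pass (log2 difference 0.34, SE 0.17, limma adjusted p = 0.22). The changes of Timm10 and Timm9 were 0.14 apart (exact two-sided permutation p = 0.325, adjusted p = 0.380), which does not show that they moved alike. The channel gene Timm22 differed by -0.12, Timm10b by -0.15, Timm13 by -0.16, Timm8a1 by 0.20 and Timm29, which was at background on 6 of 10 arrays, by 0.27. The change of Timm8b exceeded that of Timm8a1 by 0.50 (exact two-sided permutation p = 0.0079, adjusted p = 0.0139).

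None of the 3 genes of outer membrane sorting and the disulfide relay passed limma's adjusted threshold, while before adjustment 2 had a p under 0.05, Gfer and Chchd4, both higher. Samm50, which inserts barrel proteins into the outer membrane, differed by 0.04 (95% interval -0.20 to 0.28). Gfer had log2 levels of 9.44, 9.87, 9.92, 9.92 and 9.54 on ShBNIP3 arrays 6 to 10, against 9.04, 9.12, 9.33, 9.90 and 9.32 on ShCtrl arrays 1 to 5. ShCtrl array 4 lay apart from the other ShCtrl arrays, within the ShBNIP3 range, and without it and ShBNIP3 array 10 the adjusted p was 0.0133. The sulfhydryl oxidase Gfer had the largest difference of the 3 (log2 difference 0.40, SE 0.17, limma adjusted p = 0.158). Chchd4, the import oxidoreductase that Gfer reoxidises, was at background on all 10 arrays.

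Of the 4 folding chaperones Trap1 rose. Trap1 had log2 levels of 11.51, 11.52, 11.32, 11.61 and 11.35 on ShBNIP3 arrays 6 to 10, against 10.86, 11.08, 10.75, 11.07 and 10.68 on ShCtrl arrays 1 to 5. The groups did not overlap, and the call held in all 10 fits with 1 array left out. Trap1, the HSP90 of mitochondria, was 1.49-fold higher (log2 difference 0.58, SE 0.12, limma adjusted p = 0.00629). Hspd1 and Hspe1 encode HSP60 and its lid HSP10, which act together and are read from the shared upstream region printed above. Hspd1 had log2 levels of 14.13, 14.06, 13.84, 13.98 and 13.89 on ShBNIP3 arrays 6 to 10, against 13.53, 13.62, 13.70, 13.47 and 13.85 on ShCtrl arrays 1 to 5. The groups overlapped in 1 array, with ShBNIP3 array 8 just below ShCtrl array 5. Hspd1 did not pass (log2 difference 0.35, SE 0.12, limma adjusted p = 0.0627), except without ShCtrl array 5 (adjusted p = 0.0485). Hspe1 had log2 levels of 14.41, 14.11, 14.16, 14.11 and 13.97 on ShBNIP3 arrays 6 to 10, against 14.39, 14.29, 14.53, 13.90 and 14.36 on ShCtrl arrays 1 to 5. The groups overlapped. Hspe1 differed in the other direction (log2 difference -0.14, SE 0.14, limma adjusted p = 0.592). The changes of Hspd1 and Hspe1 were 0.49 apart, with all 5 ShBNIP3 arrays above all 5 ShCtrl arrays in the ratio of the pair (exact two-sided permutation p = 0.0079, adjusted p = 0.0139 over 14 pairs). The J-protein Dnaja3 differed by 0.21 (95% interval -0.09 to 0.51).

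Both subunits of the processing peptidase that cuts off presequences rose. Pmpcb had log2 levels of 12.01, 12.13, 12.21, 12.26 and 11.73 on ShBNIP3 arrays 6 to 10, against 11.31, 11.66, 11.71, 11.60 and 11.64 on ShCtrl arrays 1 to 5. Pmpca had log2 levels of 11.19, 11.27, 11.36, 11.23 and 11.26 on ShBNIP3 arrays 6 to 10, against 10.78, 10.52, 10.96, 10.92 and 11.10 on ShCtrl arrays 1 to 5. All ShBNIP3 arrays lay above all ShCtrl arrays for both genes. Pmpcb, the catalytic subunit, was 1.40-fold higher (log2 difference 0.48, SE 0.13, limma adjusted p = 0.0261). Pmpca, its partner, was 1.33-fold higher (log2 difference 0.41, SE 0.12, limma adjusted p = 0.0429). Without 1 array the adjusted p of Pmpcb was over 0.05 in 4 of 10 fits (ShBNIP3 arrays 7, 8 and 9 and ShCtrl array 1), at most 0.0693. That of Pmpca was over 0.05 in 8 of 10 (each but ShCtrl arrays 4 and 5), at most 0.102. Pitrm1 had log2 levels of 11.66, 11.60, 11.33, 11.64 and 10.98 on ShBNIP3 arrays 6 to 10, against 11.36, 11.56, 11.21, 11.21 and 11.32 on ShCtrl arrays 1 to 5. The ShCtrl range lay within the ShBNIP3 range, and ShBNIP3 array 10 was the lowest of all. Pitrm1, which degrades the cleaved presequences, did not pass (log2 difference 0.11, SE 0.15, limma adjusted p = 0.714).

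The proteases went in different directions, 2 of 5 up and 1 down. That is 60.0% of only 5 genes, where 15.5% of all probesets and 29.0% of the brighter ones passed. Lonp1 had log2 levels of 11.18, 11.35, 11.35, 11.57 and 11.33 on ShBNIP3 arrays 6 to 10, against 12.30, 12.49, 12.38, 12.99 and 12.50 on ShCtrl arrays 1 to 5. The highest ShBNIP3 array lay well under the lowest ShCtrl array, and in the 10 fits with 1 array left out the log2 difference ran from -1.23 to -1.06. Lonp1, the main ATP-dependent protease of the matrix, fell 2.26-fold and kept 44.3% of the ShCtrl level (log2 difference -1.18, SE 0.14, limma adjusted p = 0.000153). Clpx had log2 levels of 10.61, 10.81, 10.71, 10.57 and 10.97 on ShBNIP3 arrays 6 to 10, against 10.39, 10.64, 10.35, 10.69 and 10.45 on ShCtrl arrays 1 to 5. The groups overlapped. Clpx, the unfoldase of the other soluble matrix protease, did not pass (log2 difference 0.23, SE 0.12, limma adjusted p = 0.262). The change of Lonp1 was lower than that of Clpx by 1.41 (exact two-sided permutation p = 0.0079, adjusted p = 0.0139). This pair, like the others, was chosen with earlier results known, which the adjustment does not cover.

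Spg7 had log2 levels of 7.34, 7.59, 7.60, 7.72 and 7.86 on ShBNIP3 arrays 6 to 10, against 6.74, 7.05, 6.84, 6.51 and 6.73 on ShCtrl arrays 1 to 5. The groups did not overlap. Spg7 encodes paraplegin, which forms the m-AAA protease of the inner membrane with Afg3l2, and it rose 1.80-fold (log2 difference 0.85, SE 0.14, limma adjusted p = 0.00104). Levels were near background, which ran from 6.50 to 6.78 across arrays, and ShCtrl array 4 was below it. Afg3l2 differed by 0.12 (95% interval -0.24 to 0.47), and the change of Spg7 exceeded it by 0.73 (exact two-sided permutation p = 0.0159, adjusted p = 0.0247), or by 0.63 without ShBNIP3 array 10 and ShCtrl array 4 (adjusted p = 0.08). Htra2 had log2 levels of 10.75, 10.67, 10.52, 10.70 and 10.14 on ShBNIP3 arrays 6 to 10, against 10.25, 10.06, 9.81, 9.69 and 10.31 on ShCtrl arrays 1 to 5. The lowest ShBNIP3 array was within the ShCtrl range. Htra2, a serine protease of the intermembrane space, rose 1.45-fold (log2 difference 0.53, SE 0.16, limma adjusted p = 0.0398). Without any 1 of ShBNIP3 arrays 6 to 9 or ShCtrl arrays 2, 3 and 4 the adjusted p was over 0.05, at most 0.0977.

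**Figure D2:**
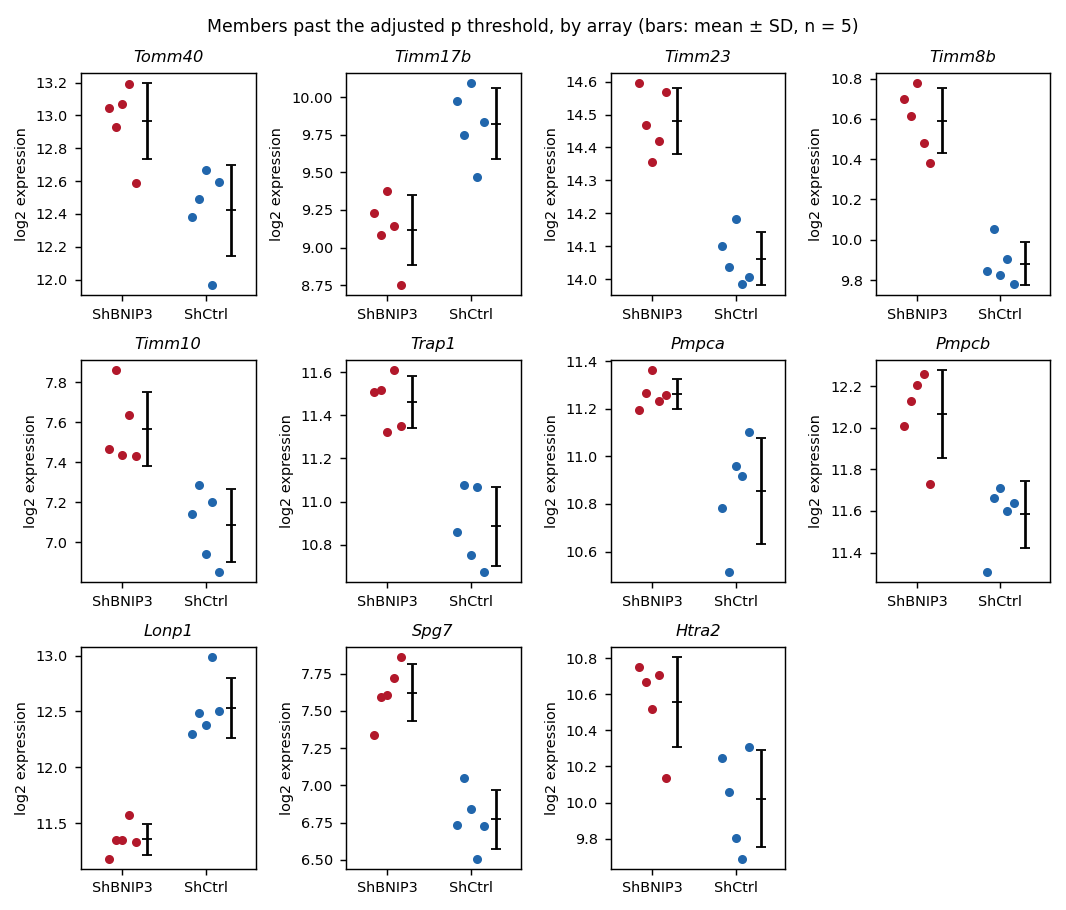
Log2 expression of the 11 members that passed the test, 1 point per array, with mean ± SD of 5 arrays beside each group. The groups do not overlap except in Tomm40 and Htra2, and Lonp1 and Timm17b are the genes lower in ShBNIP3.

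**Figure D3:**
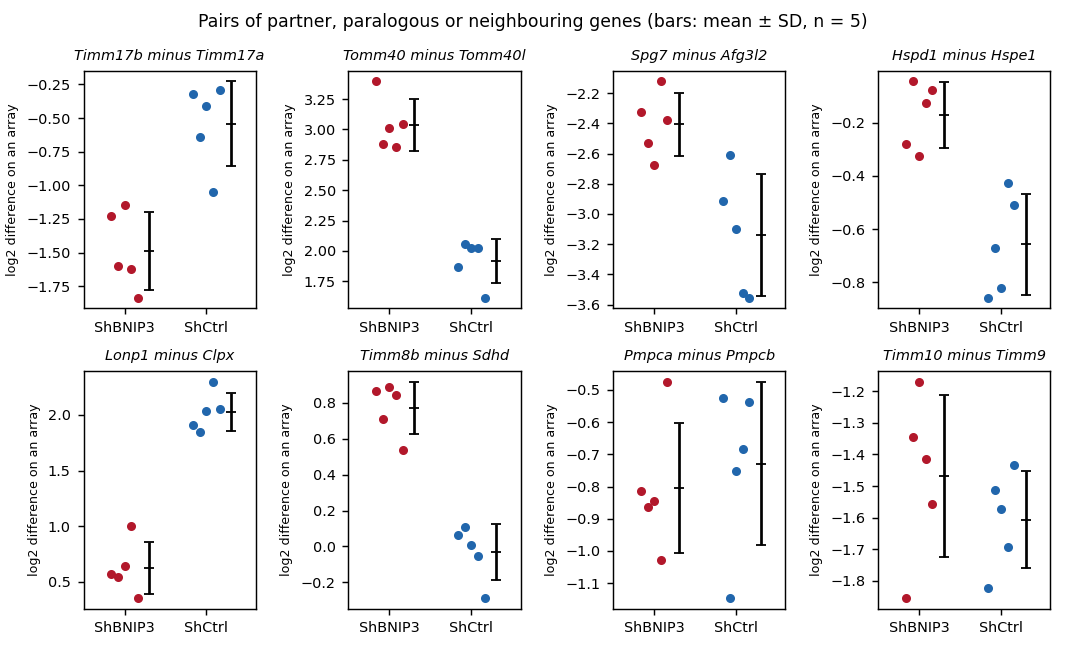
Log2 level of one gene minus that of the other on the same array, for 8 of the 14 gene pairs, with mean ± SD of 5 arrays; only the shift between groups is read, since levels of different probesets are not comparable. The groups overlap for Pmpca with Pmpcb and Timm10 with Timm9, 1 ShBNIP3 array of Spg7 with Afg3l2 lies within the ShCtrl range, and the other 5 pairs do not overlap.

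Some members start close to a gene read in the opposite direction. Of the 7 such pairs within 1000 bases in which both genes were measured, Timm8b and Sdhd, a subunit of succinate dehydrogenase, start 96 bases apart. Sdhd differed by -0.09 (limma adjusted p = 0.662), and the change of Timm8b exceeded it by 0.80 (exact two-sided permutation p = 0.0079, adjusted p = 0.0139). Timm23 and Parg, an enzyme that removes poly(ADP-ribose), start 259 bases apart, and both rose, Parg by 1.06 (limma adjusted p = 0.00106) and by 0.65 more than Timm23. Pmpca and Entr1 start 43 bases apart and both rose, Entr1 by 0.50 (limma adjusted p = 0.0323), with 0.09 between their changes (exact two-sided permutation p = 0.611, adjusted p = 0.611). Timm17b fell while Pqbp1, 498 bases away, differed by 0.20 (limma adjusted p = 0.627), a gap of 0.91 (adjusted p = 0.0139 in the exact permutation test). Tmem43, 282 bases from Chchd4, fell by 1.61 on the log2 scale (limma adjusted p = 0.000935) where Chchd4 was at background. Timm10b and Arfip2, 189 bases apart, were 0.34 apart in their changes (exact two-sided permutation p = 0.103, adjusted p = 0.144).

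Other genes of import, assembly and proteolysis changed in both directions, 9 of 36 up and 6 down. That is 41.7%, where 15.5% of all probesets and 29.0% of the brighter ones passed. The rhomboid protease Parl of the inner membrane, which cleaves Pink1, fell most, 4.08-fold (log2 difference -2.03, SE 0.17, limma adjusted p = 1.1e-05). The prohibitin Phb2 fell 1.98-fold (limma adjusted p = 7.8e-05) while its partner Phb1 rose by 0.54 (limma adjusted p = 0.0056), and the aminopeptidase Xpnpep3 fell 1.74-fold. Ppif, the matrix cyclophilin, rose 2.03-fold (limma adjusted p = 0.00762) and the filament-forming Lactb 1.77-fold. Hscb, an iron-sulfur co-chaperone, also passed as lower, but within the background range. Htra1, a secreted protease, and Oxct1, an enzyme of ketone use, also passed in this list and are not import genes. Phb1, Htra1 and Oxct1 were named after their values were seen.

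Regulators of the mitochondrial and integrated stress responses had 1 of 19 up and 4 down. That is 26.3%, where 15.5% of all probesets and 29.0% of the brighter ones passed. The transcription factors Ddit3 (5.67-fold lower), Atf5 (3.85-fold lower) and Atf4 (1.92-fold lower) fell. Atf5 had log2 levels of 10.41, 9.91, 9.07, 9.88 and 9.21 on ShBNIP3 arrays 6 to 10, against 12.13, 12.01, 11.32, 10.61 and 12.12 on ShCtrl arrays 1 to 5. Its groups did not overlap, and ShCtrl array 4 was the lowest of its group. The metabolic stress gene Sesn2 fell 2.94-fold (limma adjusted p = 0.0424) and the kinase Eif2ak4 rose 1.43-fold (limma adjusted p = 0.0334). Both genes' groups overlapped. With 1 array left out, the adjusted p of Sesn2 was over 0.05 in 8 of 10 fits (each but ShCtrl array 4 and ShBNIP3 array 6), at most 0.103. That of Eif2ak4 was over 0.05 in 7 of 10 (ShCtrl arrays 1, 2, 4 and 5 and ShBNIP3 arrays 6, 7 and 8), at most 0.0787. The list's 5 calls became 3 without ShCtrl array 1, 2 or 5 or ShBNIP3 array 7 or 8. Without ShBNIP3 array 10 and ShCtrl array 4, on both of which Sesn2 was the lowest of its group, 2 of the 19 rose and 6 fell. That is 42.1%, where 19.9% of all probesets passed, and the share of brighter probesets in that fit was not computed.

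Of 30 chaperones of the cytosol 11 passed as higher and 1 as lower, and 18 did not pass (where 15.5% of all probesets and 29.0% of the brighter ones passed). Calls fell to 6 without ShCtrl array 1 or ShBNIP3 array 8, and to 7 without ShCtrl array 2 or ShBNIP3 array 6 or 9. The rises held the HSP90 co-chaperones Ahsa1 (1.62-fold) and Stip1 (1.50-fold), the ubiquitin ligase Stub1 (1.49-fold) and the J-protein Dnajb4 (1.44-fold), which lost its call without any 1 array other than ShCtrl array 4 (adjusted p at most 0.116). The small heat shock protein Hspb1 fell 1.94-fold (limma adjusted p = 0.00311). Hspa4l is counted among the 11, but it was at background on all ShCtrl arrays and on 4 of 5 ShBNIP3 arrays, with ShBNIP3 array 10 the exception, so no size is given. The list for chaperones of the endoplasmic reticulum had 3 of 18 up and 3 down (33.3%). It also holds genes of protein degradation there, Herpud1 and Sel1l among them. Pdia6 (2.85-fold), Herpud1 (2.75-fold) and Sel1l (2.19-fold) were lower, and Dnajc3 (1.78-fold), Creld2 (1.57-fold) and Sil1 (1.42-fold) higher. With 1 array left out, the adjusted p was over 0.05 in 6 of 10 fits for Creld2 (ShCtrl arrays 1, 2, 3 and 5 and ShBNIP3 arrays 7 and 8, at most 0.0767) and in 5 for Sil1 (ShCtrl arrays 3 and 5 and ShBNIP3 arrays 6, 7 and 9, at most 0.0617). Of 66 genes for mitochondrial ribosomal proteins, 7 rose and 4 fell (16.7%), with a median log2 difference of 0.15. Of 40 complex I genes, 12 rose and 1 fell (32.5%), with a median of 0.34. These shares stand beside the same 15.5% of all probesets and 29.0% of the brighter ones. Medians were 0.13 for the other import genes, -0.13 for the stress regulators, 0.21 for cytosolic chaperones and -0.08 for those of the endoplasmic reticulum. No difference between these lists and the 42 members was tested.

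**Figure D4:**
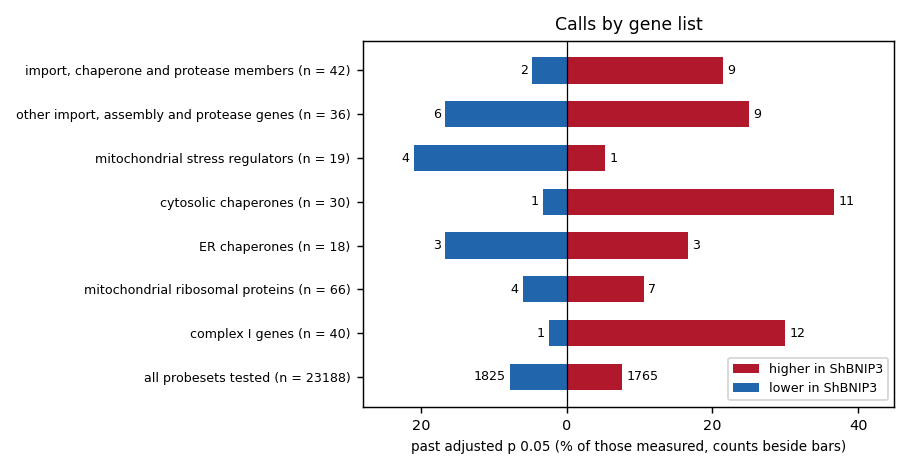
Share of measured genes past an adjusted p of 0.05 in each list and in all probesets tested, with the number higher in ShBNIP3 to the right and the number lower to the left of 0. The 42 members had 9 higher and 2 lower, and all probesets 1765 higher and 1825 lower.

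Without ShBNIP3 array 10 and ShCtrl array 4 together, 12 members rose and 3 fell (35.7%), where 19.9% of all probesets changed. Many of all probesets were at background, so these 2 shares do not compare like with like. Among the 38 brighter members 39.5% passed in this fit, but the share of brighter probesets was not computed for it. Of the 11 members called on all arrays, 10 were among these 15, and Pmpca was not (adjusted p = 0.0543). Lonp1 then differed by -1.06, Spg7 by 0.72, Timm8b by 0.77, Trap1 by 0.65 and Timm17b by -0.70.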

How the data were processed

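RNA of 10 samples was hybridised to Affymetrix rat arrays after WT Plus labelling, per the labels. The deposited values are log2 signals that the authors normalized with sst-RMA, per the labels' protocols, and the submitters' processing notes name Transcriptome Analysis Console, with the version not given in the sources used here. Of 24834 probesets, 1646 control probesets were left out and 23188 tested, of which 15049 have 1 gene symbol in the platform annotation, 0 several and 8139 none. Groups were compared with limma 3.58.1 in R 4.3.3 (lmFit and eBayes, Benjamini-Hochberg adjustment over all tested probesets, threshold 0.05), and the code was tested on simulated data. A probeset counts as at background on an array when it is under the 95th percentile of 23 antigenomic probesets, which was 6.50 to 6.78. Array medians were 6.18 to 6.22, and the number of arrays limits the precision. No scan date or slide was used as a batch. Gene pairs were compared by the difference of their log2 values on each array with an exact two-sided permutation test over the 10 arrays, adjusted over 14 pairs. The members, pairs, motifs and gene lists were chosen with earlier results of these data known. Named were all members by role, with array values for those past the threshold and for the uncalled member of each role with the largest difference, and from each of the first 4 neighbouring lists the genes past the threshold with the largest differences, up to 6, plus Atf5, Atf4 and Ddit3. Phb1, Htra1 and Oxct1, the genes next to members and the tissue markers were named outside this rule, with their values known. Alternatives were trended and robust variance, quantile normalization, median centring, no dim probesets, array weights, control probesets kept, each array left out, arrays 4 and 10 left out, a 2-fold minimum and a stricter adjusted p.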

Additional observations from a re-analysis of the deposited data

Results flagged for a closer look

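Of 132 groups of 5 arrays tested with Dixon's criterion, 15 had 1 array far from the other 4, where chance gives about 1 in 20. Among the members this held for 8 of 84 groups, 4 of them through ShCtrl array 4 and 1 through ShBNIP3 array 10. On ShCtrl array 4, the receptor Tomm22 stood at 11.56, against 12.14 to 12.30 on the other ShCtrl arrays. Hspa9 stood at 15.56 there (15.82 to 15.90 on the others), Grpel1 at 8.10 (8.65 to 8.85) and Dnajc19 at 11.83 (12.37 to 12.47). Dnajc19 was also low on ShBNIP3 array 10, at 12.15 against 12.72 to 12.90. The other members were Timm44, high on ShBNIP3 array 9 at 9.17 (8.72 to 8.77 on the others), Chchd4, at background, on ShCtrl array 5 at 5.42 (4.95 to 5.07), and Pmpcb, low on ShCtrl array 1 at 11.31 (11.60 to 11.71).

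Among the genes named from neighbouring lists, Sesn2 was low on ShBNIP3 array 10 at 11.71 (13.16 to 13.66 on the others) and on ShCtrl array 4 at 12.67 (14.83 to 15.21). ShBNIP3 array 10 was also apart for Hspa4l at 6.71 (4.78 to 5.18), Stub1 at 12.60 (12.81 to 12.88), Pdia6 at 14.58 (13.73 to 13.92) and Sel1l at 13.94 (13.50 to 13.63). Creld2 was low on ShCtrl array 1 at 8.86 (9.10 to 9.19).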

How the results depend on the processing

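No paired analysis was run, because the labels name no pairs of arrays. The titles number the ShBNIP3 arrays 6 to 10 and the ShCtrl arrays 1 to 5, which does not show whether arrays of the 2 groups shared an origin. Median centring and keeping the control probesets changed no call among the members, and no scaling moved the median of all probesets by as much as 0.1. With 1 array left out at a time, 4 to 11 members rose and 2 to 3 fell, and Bnip3 differed by -3.53 to -2.87. Calls over all probesets ran from 2746 to 3960 in these fits, against 3590 on all arrays. Array weights gave 14 rises, and calls over all probesets also grew, to 4595. No member rose under a 2-fold minimum (0) or an adjusted p under 0.0005 (0), and 1 fell under each, Lonp1, which follows from the stricter criteria. Calls by role ran with 1 array left out from 0 to 1 in the TOM complex, 2 to 5 in TIM23 and motor, 1 to 2 in TIM22 and small Tims, 0 to 1 in sorting and relay, 1 to 2 in folding chaperones, 0 to 2 in presequence peptidases and 2 to 3 in quality-control proteases. The TOM complex had 3 calls without dim probesets, 3 with array weights and 2 without arrays 4 and 10. TIM23 and motor had 4, 4 and 5 under these settings and 4 with quantile normalization. Sorting and relay had 1 with array weights and 1 without arrays 4 and 10, and presequence peptidases 1 with quantile normalization and 1 without arrays 4 and 10. Folding chaperones had 2 with trended variance, quantile normalization, no dim probesets or array weights. The 2-fold minimum and the stricter p each left 0 calls in these roles and in TIM22, and 1 in the quality-control proteases. For neighbouring lists the calls with 1 array left out, at 2-fold and at the stricter p were 14 to 17, 2 and 2 for other import genes, 3 to 6, 3 and 1 for stress regulators, 6 to 10, 1 and 0 for cytosolic chaperones, 4 to 8, 3 and 2 for chaperones of the endoplasmic reticulum, 9 to 14, 2 and 3 for mitochondrial ribosomal proteins, and 8 to 12, 1 and 1 for complex I. Stress regulators had 8 without arrays 4 and 10, and ribosomal proteins 17 there and 18 without dim probesets. Signs turned only for differences near 0: Timm44 to 0.0093 with quantile normalization, 0.019 with array weights and 0.040 without arrays 4 and 10. With 1 array left out, Timm44 ran from -0.103 to 0.026, Grpel2 from -0.203 to 0.012, Samm50 from -0.014 to 0.084, and Pmpca minus Entr1 from -0.172 to 0.026 (without ShCtrl array 4). Without arrays 4 and 10, the 8 gene pairs with an adjusted p of 0.0139 on all arrays had one of 0.05, which is not under the threshold and follows from the fewer splits of 8 arrays. The cause of the other shifts was not tested. With 5 arrays a group, small differences could be missed, and members at background (Grpel2, Timm8a2, Chchd4) give no usable level.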
